A study of Mus musculus with 23 samples.

Results

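Transcripts of 10 enzymes and cofactors that remove superoxide and peroxides were followed in CD11b-positive cells of the hippocampus of female mice. They were chosen by gene symbol as the superoxide dismutases *Sod1* and *Sod2*, catalase (*Cat*), glutathione peroxidase *Gpx1*, the peroxiredoxins *Prdx1*, *Prdx2*, *Prdx3*, *Prdx5* and *Prdx6*, and thioredoxin *Txn1*, and they make up 10 of the 18876 genes in the count table. All mice carried *Slc11a2* fl/fl alleles and *Cx3cr1* Cre-ERT2+/-, on a mixed 129S and C57BL/6J background. The *APP/PS1* mice were hemizygous for the amyloid transgenes, and the WT mice were their littermates. Slc11a2KD mice were gavaged with tamoxifen, 4 mg a day for 5 days, when they were 5 to 6 months old, and Control mice received 200 µL of corn oil, so that tamoxifen and the knockdown cannot be told apart. Cells were collected at 15 to 18 months from 6 Control WT, 7 Control *APP/PS1*, 5 Slc11a2KD WT and 5 Slc11a2KD *APP/PS1* mice, 1 library each. Control *APP/PS1* library 0010 was left out. The published analysis removed a library of that group without naming it in its text, and 0010 is the one that the labels list and a published heat map of the group does not show. That leaves 22 libraries, with 6 in that group. *Cx3cr1* drives the inducible Cre in microglia and also in other macrophages, and the CD11b beads select myeloid cells in general.

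Superoxide, which leaks from the respiratory chain and is released by the NADPH oxidase of phagocytes, is turned into hydrogen peroxide by SOD1 in the cytosol and by SOD2 in the mitochondrial matrix. Hydrogen peroxide is then removed by catalase in peroxisomes, by glutathione peroxidase 1 at the expense of glutathione, and by the peroxiredoxins, most of which are reduced again by thioredoxin. Microglia, the resident macrophages of the brain, make both oxidants and the enzymes that remove them, and free iron turns hydrogen peroxide into hydroxyl radicals. *Slc11a2* encodes DMT1, which imports ferrous iron.

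In Control mice, transcripts of *Prdx1* and *Prdx6* were higher in *APP/PS1* than in WT, and the other 8 did not pass the test, where 10.5% of all genes passed. In Slc11a2KD mice, 8 of the 10 were higher in *APP/PS1* than in WT and *Cat* was lower, where 16.2% of all genes passed, but between the WT groups and between the *APP/PS1* groups no transcript passed the test for the knockdown. Knockdown libraries numbered 18 to 23 carried higher levels of 8 transcripts than those numbered 1 to 4, where 24.0% of all genes passed. This came from 1 fit with genotype as a term, and only 1 *APP/PS1* library was numbered 1 to 4. The difference bears on every comparison with a knockdown group.

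The stretches of 250 bases before the start of 3 of these genes are shown. They are the promoter windows of *Prdx1* and *Sod1*, shown because the antioxidant response element core was found in them, and of *Cat*, shown because it went the other way from the rest in knockdown mice. The windows are from RefSeq on GRCm38.p6, read 5′ to 3′ on the gene's strand, with the core in capitals in *Prdx1* and *Sod1* and the CCAAT box in capitals in *Cat*.
Prdx1, chr4:116685349-116685598, plus strand: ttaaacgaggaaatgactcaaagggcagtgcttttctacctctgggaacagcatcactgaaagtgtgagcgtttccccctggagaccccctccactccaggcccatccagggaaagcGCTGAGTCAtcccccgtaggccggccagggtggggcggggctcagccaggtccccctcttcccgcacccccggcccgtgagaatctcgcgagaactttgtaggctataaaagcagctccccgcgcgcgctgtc
Sod1, chr16:90220512-90220761, plus strand: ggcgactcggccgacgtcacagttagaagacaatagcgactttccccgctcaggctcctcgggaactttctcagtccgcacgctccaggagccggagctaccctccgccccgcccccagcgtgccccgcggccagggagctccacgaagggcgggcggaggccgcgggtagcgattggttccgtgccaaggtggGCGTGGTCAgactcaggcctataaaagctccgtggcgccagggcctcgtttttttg
Cat, chr2:103485154-103485403, minus strand: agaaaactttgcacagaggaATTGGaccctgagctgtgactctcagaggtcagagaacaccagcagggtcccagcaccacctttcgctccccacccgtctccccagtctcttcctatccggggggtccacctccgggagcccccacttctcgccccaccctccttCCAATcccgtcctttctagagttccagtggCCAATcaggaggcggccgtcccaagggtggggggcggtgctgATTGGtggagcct

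The antioxidant response element is the sequence bound by NRF2 with its small MAF partners, and its core was searched on both strands as TGACNNNGC. In *Prdx1* the match lies 133 bases before the start, and in *Sod1* 56 bases before it, both read on the opposite strand, as GCTGAGTCA and GCGTGGTCA. The letters in *Prdx1* also hold TGAGTCA, the site of AP-1. Of all 32851 windows of this length, 10.2% hold the core. The *Cat* window holds CCAAT, the letters bound by NF-Y, 4 times on either strand, and 33.8% of all windows hold it at least once, among them those of *Sod1* and *Sod2* (once each). A GC box (GGGCGG on either strand), found in 32.7% of all windows, occurs 4 times each in *Sod1*, *Sod2* and *Txn1*, once each in *Cat*, *Prdx1*, *Prdx3* and *Prdx5*, and not in *Gpx1* or *Prdx2*. The letters of a TATA box (TATAAA, plus strand only) stand in *Sod1*, *Prdx1* and *Txn1*, against 7.6% of all windows. They lie 37, 29 and 160 bases before the start, in that order. Windows were matched for 9 of the 10 genes, all but *Prdx6*. A match is a run of letters and was not tested as a binding site.

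On GRCm39, the superoxide dismutase genes lie at chr16:90017408-90027657 (*Sod1*) and chr17:13224095-13259591 (*Sod2*), both on the plus strand, and *Cat* at chr2:103284194-103316185 on the minus strand. *Gpx1* is at chr9:108216102-108217546 on the plus strand. *Prdx1* (chr4:116532123-116558398) and *Prdx2* (chr8:85693354-85702350) are on the plus strand, and *Prdx3* (chr19:60852489-60863017), *Prdx5* (chr19:6884065-6887792) and *Prdx6* (chr1:161051417-161079098) on the minus strand, as is *Txn1* (chr4:57934208-57956424). Values are sums over all annotated exons of a gene. Exons of another gene on the opposite strand cover 85.3% of the exon bases of *Gpx1* (a long noncoding RNA), 48.8% of those of *Sod1* (*Scaf4*), 29.2% of those of *Prdx5* (*Trmt112*) and 20.6% of those of *Prdx2*, and none of those of *Cat* and *Prdx3*. Whether counting used the strand is not given in the sources used here, so how reads on these shared bases were counted is not known. The overlaps were read from a later annotation release than the one the paper names for its counts. Processed pseudogenes named for *Prdx1*, *Prdx2* and *Prdx6* could also share reads with them.

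Libraries held 31128643 to 54872491 counts, and each enzyme transcript had 897 to 67365 counts in each of the 22 libraries, so that counting error was small beside the spread between mice. Levels are given as CPM, counts per 1000000 counts of the TMM-scaled library. All 8 microglial markers were detected, with a summed level of 28704 to 42296 CPM. The targeted gene, *Slc11a2*, was at 29.6 to 43.3 CPM in Control WT, 39.6 to 47.8 in Control *APP/PS1*, 26.8 to 37.7 in Slc11a2KD WT and 37.5 to 74.4 in Slc11a2KD *APP/PS1*. By edgeR it did not pass for the knockdown, with log2 fold changes of -0.04 in WT (SE 0.14, adjusted p = 1) and 0.39 in *APP/PS1* mice (SE 0.14, adjusted p = 0.205). The gene total also counts exons outside the deleted part and does not check the labels, and all directions below follow the labels. A lower level in bulk RNA cannot be told apart from fewer cells that carry the transcript.

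**Figure D1:**
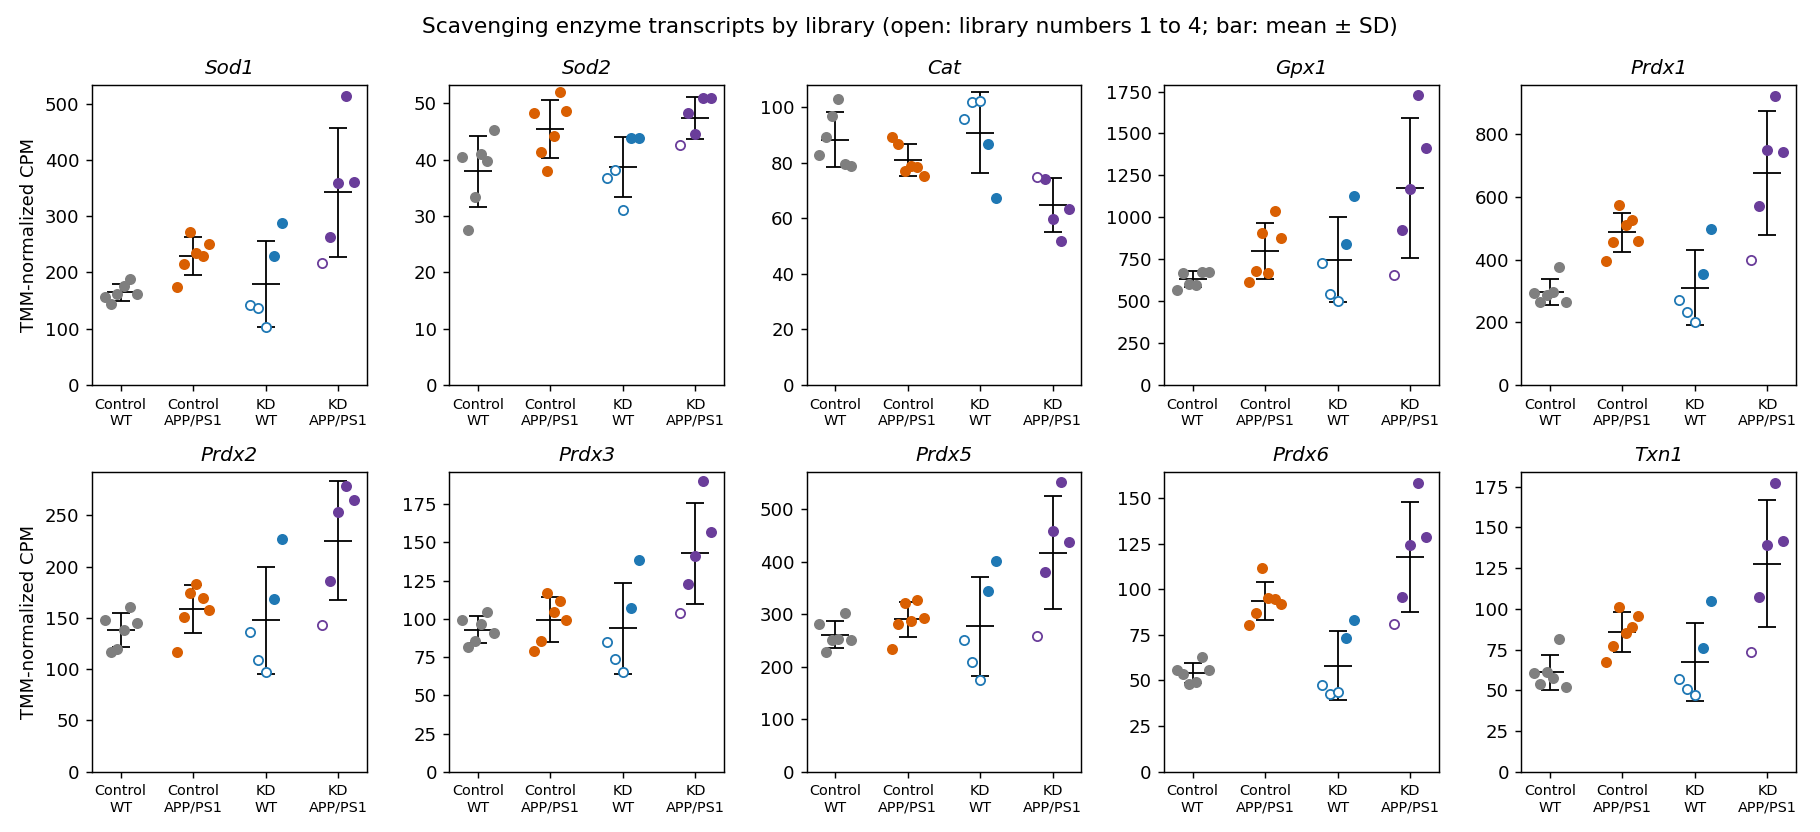
TMM-normalized CPM (linear axes from 0) of each of the 10 transcripts in every library, by group, with the mean and SD as bars (n = 6, 6, 5 and 5) and knockdown libraries numbered 1 to 4 as open circles. Prdx6 runs from 47.8 to 62.7 CPM in Control WT and from 80.5 to 111 CPM in Control APP/PS1, and in the knockdown WT group the filled circles lie above the open ones for all but Cat.

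Control *APP/PS1* against Control WT asks what the amyloid transgenes changed in mice with intact *Slc11a2*. *Prdx6*, a peroxiredoxin that uses glutathione rather than thioredoxin and also has phospholipase activity, was at 47.8 CPM in the lowest, 54.5 in the median and 62.7 in the highest of the 6 Control WT libraries. In Control *APP/PS1* it was at 80.5, 93.2 and 111 CPM. Every Control *APP/PS1* library was above every Control WT library. The log2 fold change was 0.79 (SE 0.17, adjusted p = 0.00248, edgeR's quasi-likelihood test).

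*Prdx1*, an abundant cytosolic peroxiredoxin and a known NRF2 target, ranged from 265 to 375 CPM in Control WT, with a median of 290.3. In Control *APP/PS1* it ranged from 395 to 573 CPM, with a median of 484. The groups did not overlap, although Control WT library 0014, at 375 CPM, stood above the other 5, which were at 265 to 296 CPM. The log2 fold change was 0.71 (SE 0.19, adjusted p = 0.0169). With these, 2 of the 10 transcripts passed the test, both higher, where 10.5% of all 18759 genes tested passed it (5.99% higher and 4.48% lower). The groups did not overlap, *APP/PS1* higher, for 2 of the 10 and for 5.33% of all genes.

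The superoxide dismutases had positive log2 fold changes that did not pass, of 0.48 for *Sod1* (SE 0.21, adjusted p = 0.151) and 0.26 for *Sod2* (SE 0.12, adjusted p = 0.180). *Sod1* ranged from 144 to 188 CPM in Control WT, with a median of 161, and from 174 to 271 CPM in Control *APP/PS1*, with a median of 231. Only the ends of the 2 ranges overlapped. *Txn1* had a log2 fold change of 0.49 (SE 0.19, adjusted p = 0.110) and *Gpx1* one of 0.34 (SE 0.20, adjusted p = 0.324). The other thioredoxin-dependent peroxiredoxins lay closer to 0, at 0.20 for *Prdx2*, which is cytosolic, 0.10 for *Prdx3* of the mitochondrial matrix and 0.15 for *Prdx5*, found in mitochondria, peroxisomes and cytosol. For *Cat*, Control WT had 88.2 ± 9.79 CPM and Control *APP/PS1* 80.8 ± 5.68 CPM (SD over 6 libraries each), and the log2 difference was -0.13 (SE 0.11, adjusted p = 0.572). The median log2 fold change was 0.30 over the 10 and -0.02 over all genes.

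Markers of other cells differed between the same groups. The summed level of 8 choroid plexus markers was 1.28 to 5.37 CPM in Control *APP/PS1* and 1.08 to 1916 CPM in Control WT, where libraries 0012 and 0015 held nearly all of it, and 6 of the 8 markers were lower in Control *APP/PS1*. Of the microglial markers, 3 of 8 were lower and 1 was higher, and of the 4 markers each of neutrophils and border macrophages, 4 and 3 were lower. Of oligodendrocyte markers 4 of 5 were lower, of endothelial markers 3 of 4 were lower and 1 was higher, of neuronal markers 2 of 5 were lower, and of astrocyte markers 1 of 6 was higher. Without 0012 and 0015 the log2 fold change of *Prdx6* still passed (0.77), and that of *Prdx1*, at 0.67, no longer did (adjusted p = 0.0824), where 6.91% of all genes passed. With the choroid plexus markers as a covariate 4 passed, which were *Sod1* (0.61), *Sod2* (0.36), *Prdx1* (0.81) and *Prdx6* (0.88), where 11.5% of all genes did. The share of counts on genes with a coding length below 1000 bases (of the counts on all genes with a coding length) was 46.3% to 50.4% in Control WT and 44.2% to 53.0% in Control *APP/PS1*. With a correction for coding length and GC content, chosen after seeing the data, the log2 fold changes of *Prdx1* and *Prdx6* were 0.71 and 0.68 (adjusted p = 0.000181 and 5.29e-05), and *Txn1* passed as well (0.33, adjusted p = 0.0295), where 13.9% of all genes passed. *Prdx1* and *Prdx6* also passed with erythroid markers as a covariate. Beyond these fits, the part of the other cell types in these differences was not tested.

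**Figure D2:**
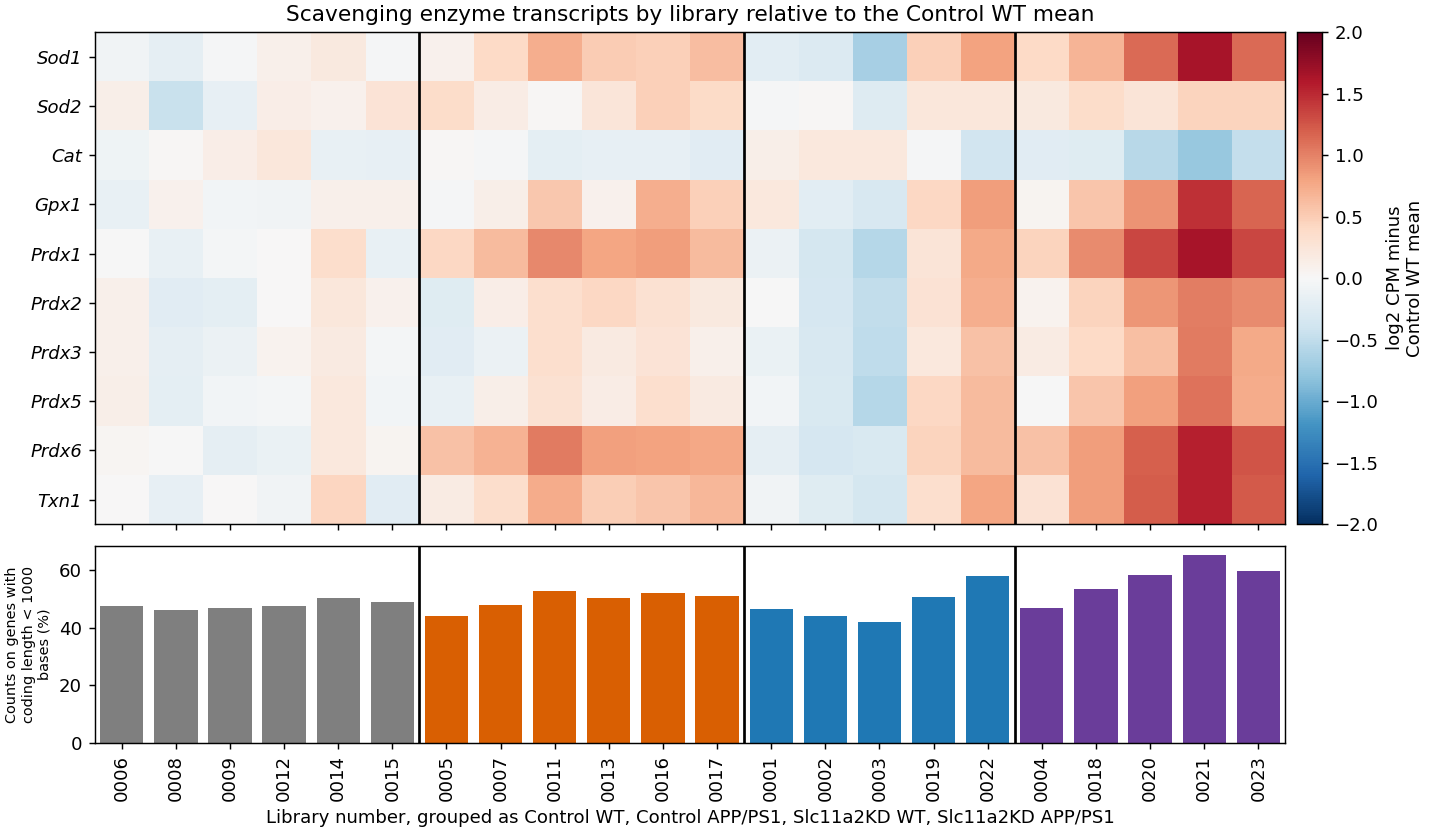
Upper part, log2 CPM of each transcript in each library minus its Control WT mean (red higher, blue lower), with libraries in 4 blocks by group. Lower part, the share of counts (%, linear axis from 0) on genes with a coding length below 1000 bases. It ran from 42.0% in knockdown WT library 0003, where most rows are blue, to 65.2% in knockdown APP/PS1 library 0021, where most rows are deepest red.

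Slc11a2KD *APP/PS1* against Slc11a2KD WT asks the same of the amyloid transgenes after the knockdown. Of the 10 transcripts, 8 were higher in *APP/PS1* and 1 was lower, where 16.2% of all genes passed the test (9.77% higher and 6.41% lower). The ranges of the groups overlapped for all 10, and were separate for 7.06% of all genes. The median log2 fold change over the 10 was 0.63, and over all genes it was -0.07. Of the microglial markers, 4 of 8 were lower in *APP/PS1* and 1 was higher, and their summed level was 31550 to 35779 CPM in *APP/PS1* and 37034 to 42296 CPM in WT. Of oligodendrocyte markers 2 of 5, of border macrophage markers 2 of 4, and of neutrophil and endothelial markers 1 of 4 each were lower, and 1 of 6 astrocyte markers was higher. The part of these cells in the differences that follow was not tested.

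*Prdx1* was at 272, 232 and 199.6 CPM in Slc11a2KD WT libraries 0001, 0002 and 0003 and at 352 and 498 CPM in 0019 and 0022. In Slc11a2KD *APP/PS1* it was at 400.03 CPM in library 0004 and at 570, 748, 920.2 and 741 CPM in 0018, 0020, 0021 and 0023. Its overlap came from 1 library on each side, since only WT library 0022 exceeded *APP/PS1* library 0004. The log2 fold change was 1.12 (SE 0.21, adjusted p = 0.000856).

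*Prdx6* was at 47.5, 42.8 and 43.5 CPM in the first 3 WT libraries, in the same order, and at 73.5 and 83.2 CPM in the other two. In *APP/PS1* it was at 81.2 CPM in 0004 and at 96.0, 124, 158 and 129 CPM in the rest. Here too only WT library 0022 exceeded *APP/PS1* library 0004. The log2 fold change was 1.02 (SE 0.18, adjusted p = 0.000518).

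*Sod1* was at 141, 136 and 103 CPM in WT libraries 0001 to 0003 and at 229 and 288 CPM in 0019 and 0022, against 216 CPM in *APP/PS1* library 0004 and 263, 359, 513 and 360.0 CPM in the others. WT libraries 0019 and 0022 were both higher than *APP/PS1* library 0004. The log2 fold change was 0.93 (SE 0.23, adjusted p = 0.00683). *Txn1*, the small disulfide reductase that restores the peroxiredoxins, had a log2 fold change of 0.92 (SE 0.21, adjusted p = 0.00454), with 67.3 ± 23.8 CPM (SD, n = 5) in Slc11a2KD WT and 128 ± 39.2 CPM (SD, n = 5) in Slc11a2KD *APP/PS1*.

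The remaining transcripts that rose had smaller values. *Gpx1* rose by 0.65 on the log2 scale (SE 0.22, adjusted p = 0.0454), *Prdx2* by 0.61 (SE 0.20, adjusted p = 0.0388), *Prdx3* by 0.61 (SE 0.18, adjusted p = 0.0215) and *Prdx5* by 0.59 (SE 0.19, adjusted p = 0.0367). None of these 4 passed with library numbers 18 to 23 as a term. With the correction for coding length and GC content *Gpx1* was at 0.26 (adjusted p = 0.210), *Prdx2* at 0.25 (adjusted p = 0.129) and *Prdx5* at 0.24 (adjusted p = 0.134), and *Prdx3* still passed. *Sod2*, the mitochondrial dismutase, did not pass, at 38.7 ± 5.34 CPM in Slc11a2KD WT and 47.5 ± 3.73 CPM in Slc11a2KD *APP/PS1*, SD over 5 libraries each, with a log2 difference of 0.29 (SE 0.13, adjusted p = 0.130).

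*Cat* went the other way. It was at 95.5, 102 and 102 CPM in WT libraries 0001 to 0003 and at 86.7 and 67.1 CPM in 0019 and 0022, and at 74.9 CPM in *APP/PS1* library 0004 and 74.1, 59.6, 51.8 and 63.3 CPM in 0018, 0020, 0021 and 0023. Only WT library 0022 lay within the *APP/PS1* range. The log2 fold change was -0.49 (SE 0.12, adjusted p = 0.00949), the only fall among the 10.

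Library numbers and genotype were unevenly mixed in the knockdown groups: 3 of 5 WT libraries but 1 of 5 *APP/PS1* libraries were numbered 1 to 4. Within the knockdown libraries 18 to 23 (2 WT and 4 *APP/PS1*), *Prdx1* and *Prdx6* passed, with log2 fold changes of 0.78 (adjusted p = 0.0233) and 0.66 (adjusted p = 0.0277), where 4.69% of all genes passed. Within those numbered 1 to 4, where the lone *APP/PS1* library was taken to vary like the other groups, *Prdx6* passed (0.85, adjusted p = 0.0134) and *Prdx1* did not (0.76, adjusted p = 0.0780), where 1.85% of all genes passed. With library numbers 18 to 23 as a term in the fit, *Sod1* (0.62), *Prdx1* (0.80), *Prdx6* (0.76) and *Txn1* (0.59) passed and *Cat* did not (-0.35, adjusted p = 0.0588), where 9.45% of all genes passed. *Prdx6* passed in all 22 fits that each left out 1 library, and so did *Sod1*, *Cat*, *Prdx1* and *Txn1*, while *Gpx1* passed in 6 of them, *Prdx2* and *Prdx5* in 16 and *Prdx3* in 17.

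**Figure D3:**
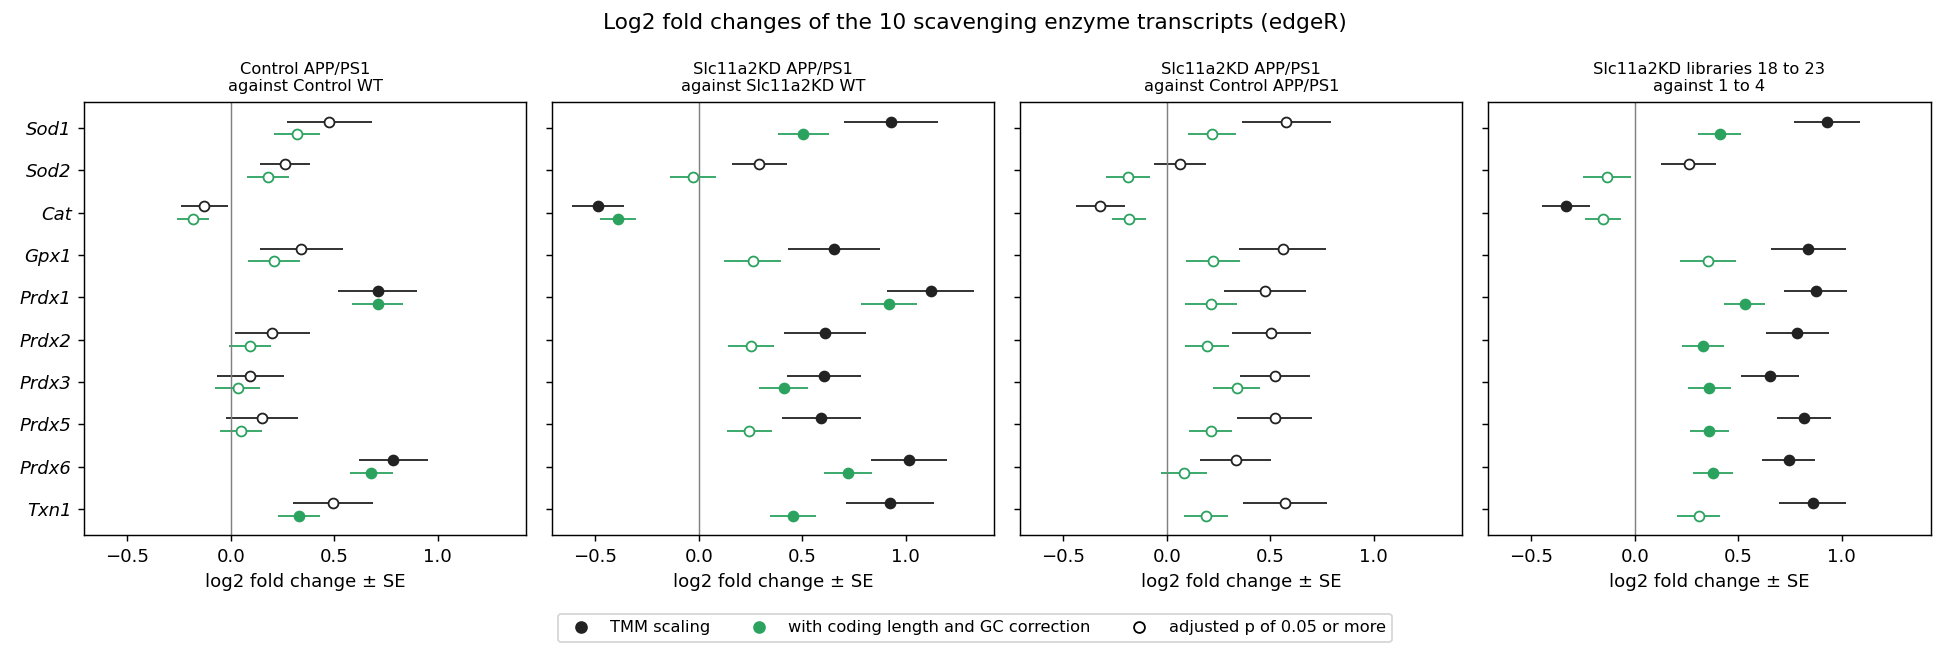
Log2 fold changes (points) with standard errors (bars) of the 10 transcripts in 4 comparisons, with TMM scaling (black) and with the correction for coding length and GC content (green), filled where the adjusted p was below 0.05. Prdx1 and Prdx6 are filled in both colours in both comparisons of APP/PS1 with WT, and for Slc11a2KD APP/PS1 against Control APP/PS1 every point is open.

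Slc11a2KD WT against Control WT asks what the knockdown changed without amyloid. No gene passed edgeR's test, of 18759 (0% called, 1110 genes or 5.92% at an unadjusted p below 0.05, and 10 genes by DESeq2). None of the 10 transcripts had an unadjusted p below 0.05, and their log2 fold changes ran from 0.01 for *Prdx3* (SE 0.17) to 0.25 for *Gpx1* (SE 0.21). These values pool 2 runs of library numbers whose log2 fold changes had opposite signs for each of the 10. With only knockdown libraries 18 to 23, the log2 fold changes were 0.66 for *Sod1*, 0.65 for *Gpx1* and 0.52 for *Prdx1*, and with only those numbered 1 to 4 they were -0.38 for *Sod1*, -0.10 for *Gpx1* and -0.35 for *Prdx1*. None of the 10 passed in either fit, or with library numbers 18 to 23 as a term, where 9 of the 10 were negative. The spread was wider in Slc11a2KD WT for 9 of the 10, all but *Sod2* (SD 5.34 CPM, and 6.37 CPM in Control WT). The SD of *Sod1* was 15.5 CPM over Control WT and 76.3 CPM over Slc11a2KD WT, and that of *Prdx1* 40.6 and 119 CPM. The ranges of Slc11a2KD WT reached both below and above those of Control WT for *Sod1*, *Gpx1*, *Prdx1*, *Prdx2*, *Prdx3*, *Prdx5*, *Prdx6* and *Txn1*.

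Slc11a2KD *APP/PS1* against Control *APP/PS1* asks what the knockdown changed in the amyloid model. No gene passed edgeR's test (0% called, 3862 genes at an unadjusted p below 0.05, and 580 by DESeq2), and so none of the 10. Of these, 8 had an unadjusted p below 0.05, with 7 positive values and a negative one for *Cat*, where 20.6% of all genes did. Log2 fold changes were 0.58 for *Sod1*, 0.56 for *Gpx1*, 0.48 for *Prdx1*, 0.51 for *Prdx2*, 0.52 for both *Prdx3* and *Prdx5*, and 0.57 for *Txn1*. Adjusted p-values ran from 0.205 to 0.843. *Cat* was at 75.0 CPM in the lowest, 78.6 in the median and 89.1 in the highest Control *APP/PS1* library, and all 5 Slc11a2KD *APP/PS1* libraries were below that range, the highest at 74.9 CPM. Its log2 fold change was -0.32 (SE 0.12, adjusted p = 0.205), and groups did not overlap, knockdown lower, for 0.362% of all genes. The summed choroid plexus markers were at 1.28 to 5.37 CPM in Control *APP/PS1* and 2.27 to 479.6 CPM in Slc11a2KD *APP/PS1*, although none of the 8 passed the test. With these markers as a covariate, none of the 10 had an unadjusted p below 0.05 (5.47% of all genes did), and their median log2 fold change was 0.28 in place of 0.51. With the correction for coding length and GC content, *Cat* and *Prdx3* did (14.2% of all genes), and the median was 0.20.

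This comparison turned on library 0004. Without it, 8 of the 10 passed edgeR's test, all but *Sod2* and *Prdx6*, where 16.4% of all genes did. DESeq2 on all 22 libraries called 3, which were *Prdx3*, *Prdx5* and *Txn1*, and 3.09% of all genes. Library 0004 was the lowest of its group for 9 transcripts and the highest for *Cat*. Set alone against Control *APP/PS1*, with its spread taken from the other groups, it had log2 differences from -0.31 for *Gpx1* to 0.04 for *Prdx3*, the only positive one, with a median of -0.17, and none passed. All Control libraries are numbered 5 to 17, between the 2 runs of knockdown libraries. A term for library numbers 18 to 23 is therefore estimated within the knockdown libraries, and the knockdown difference then rests on those numbered 1 to 4, so that it is no separate evidence from 0004 alone. With this term all 10 log2 fold changes were negative, from -0.28 for *Prdx6* to -0.02 for *Prdx3*, with an adjusted p of 1. With 0010 kept, none of the 10 had an unadjusted p below 0.05. Library 0010 lay above the other Control *APP/PS1* libraries for 8 of the 10 and below them for *Cat*, at 47.7 CPM. For 0004 and 0010 alike, the share of all genes outside the other libraries of the group is not given here.

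The difference between the genotypes in their response to the knockdown was tested as an interaction. No gene passed it by edgeR (0% called, 1703 genes or 9.08% at an unadjusted p below 0.05), while DESeq2 called 25 genes and limma voom 1, none of them among the 10. *Prdx3* (0.51, SE 0.24, adjusted p = 0.544) and *Cat* (-0.36, SE 0.17, adjusted p = 0.544) had an unadjusted p below 0.05. The larger count of transcripts that passed in knockdown than in Control mice is therefore not shown to be a difference between them.

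Knockdown libraries numbered 18 to 23 were compared with those numbered 1 to 4, a comparison added after seeing the data and estimated with genotype in the model. The numbers come from the sample titles, which do not say what they stand for. Of the 10 transcripts 8 were higher and *Cat* was lower in libraries 18 to 23, where 24.0% of all genes passed (11.3% higher and 12.7% lower). *Sod1* had a log2 fold change of 0.93 (SE 0.16, adjusted p = 0.000476), *Prdx1* one of 0.87 (SE 0.15, adjusted p = 0.000457) and *Prdx5* one of 0.82 (SE 0.13, adjusted p = 0.000367), and *Cat* one of -0.33 (SE 0.12, adjusted p = 0.0392). The call of *Cat* held in 4 of the 10 fits that each left out 1 knockdown library, and was lost without 0002, 0003, 0004, 0020, 0021 or 0022, with DESeq2 size factors and with 0010 kept, at log2 values of -0.38 to -0.23. *Sod2* did not pass (0.26, SE 0.13, adjusted p = 0.166). In WT mice, 0019 and 0022 lay above 0001 to 0003 for 9 of the 10, and below them for *Cat*, where 20.1% of all genes lay above and 19.7% below.

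Other measures moved with the same libraries. The share of counts on genes with a coding length below 1000 bases was 42.0% to 46.6% in Slc11a2KD WT libraries 0001 to 0003 and 50.9% and 58.0% in 0019 and 0022, and 47.0% in *APP/PS1* library 0004 and 53.5% to 65.2% in the other 4. Of the 10 transcripts, 9 have a coding length below 1000 bases, with a median of 616.5 over the 10, against 32.6% of all genes with a coding length. *Cat*, at 1581 bases, is the exception. The summed choroid plexus markers were at 2.27 to 50.7 CPM in knockdown libraries 1 to 4 and at 86.3 to 771 CPM in 18 to 23. With the correction for coding length and GC content, 6 of the 10 still passed between the library numbers, with *Sod1* at 0.41 and *Prdx1* at 0.53, and *Cat* did not (-0.15), where 12.3% of all genes passed. For Slc11a2KD *APP/PS1* against Slc11a2KD WT the same correction left 6, where 15.6% of all genes passed. They were *Sod1* (0.51), *Prdx1* (0.92), *Prdx3* (0.41), *Prdx6* (0.72), *Txn1* (0.45) and *Cat* (-0.39). With choroid plexus markers as a covariate in place of the correction, the same transcripts passed for this genotype comparison as without either. Among them were *Sod1* (0.92), *Prdx1* (1.10), *Gpx1* (0.63) and *Cat* (-0.47), and the share of all genes in that fit is not given here. The part of library numbers, transcript length and choroid plexus RNA in these differences was tested no further.

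The transcripts moved together across libraries. Without *Cat* and *Sod2*, Pearson's r between pairs of the other 8 was 0.83 to 0.98 (log2 CPM, 22 libraries, 28 pairs), and 0.86 to 0.97 after each group's mean was removed. *Sod2* followed them less closely, with r of 0.61 to 0.70 (0.38 to 0.52 within groups), and *Cat* ran against the other 9, with r of -0.91 to -0.62 (-0.89 to -0.42 within groups). These are descriptions, since all points share library depth and make-up. Among the 7897 genes with a mean of at least 10 CPM, the nearest to each transcript was not another of the 10. It was *Rpl41* for *Prdx1* (r = 0.99) and *Rpsa* for *Prdx6* (0.98), both ribosomal protein genes, *Atp5mj*, an ATP synthase subunit, for *Sod1* (0.99), *Ndufs6*, a complex I subunit, for *Txn1* (0.99), and *Slc25a5*, the mitochondrial ADP/ATP carrier, for *Prdx2* (0.98). It was *Spcs2* of the signal peptidase for *Prdx3* (0.98), *Srp9* of the signal recognition particle for *Prdx5* (0.98), *Tpt1-ps3* for *Gpx1* (0.96), *Snx9*, a sorting nexin, for *Cat* (0.95) and *Lat2*, an adaptor of immune receptor signalling, for *Sod2* (0.84).

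A further 23 genes of the thioredoxin, glutaredoxin, glutathione peroxidase, superoxide dismutase and methionine sulfoxide reductase systems were read in the same fits. In Control mice, 3 of the 23 were higher and 2 lower in *APP/PS1*, where 5.99% of all genes were higher and 4.48% lower. *Srxn1*, the sulfiredoxin that rescues overoxidized peroxiredoxins, was at 7.16 CPM on average in Control WT and 13.3 CPM in Control *APP/PS1* (log2 fold change 0.89, adjusted p = 0.0269). *Msra*, a methionine sulfoxide reductase, rose by 0.72 (adjusted p = 0.00250) and *Txn2*, the mitochondrial thioredoxin, by 0.43 (adjusted p = 0.0430). *Txnip*, which binds and inhibits thioredoxin, was at 1354 CPM in Control WT and 735 CPM in Control *APP/PS1* (-0.88, adjusted p = 0.0192), and *Gpx3*, a secreted glutathione peroxidase, was lower as well (-0.72, adjusted p = 0.0201). The median over the 23 was 0.18.

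In Slc11a2KD mice, 9 of the 23 were higher and 2 lower in *APP/PS1*, where 9.77% of all genes were higher and 6.41% lower. Both counts are from the fit without a term for library numbers and without the correction for coding length. The ranges of the groups overlapped for all but *Srxn1* and *Gpx3*, and were separate for 7.06% of all genes. *Srxn1* rose by 1.11 (adjusted p = 0.00973) and *Txnip* fell by 0.94 (adjusted p = 0.0169), the same directions as in Control mice. *Gpx4*, which reduces lipid hydroperoxides in membranes, rose by 1.06 (adjusted p = 0.00242), *Ccs*, the copper chaperone of SOD1, by 0.68 (adjusted p = 0.00513) and *Prdx4*, the peroxiredoxin of the endoplasmic reticulum, by 0.69 (adjusted p = 0.00831). *Txnrd2*, the mitochondrial thioredoxin reductase, rose by 0.76 (adjusted p = 0.00446) and *Txn2* by 0.51 (adjusted p = 0.0221). The other 3 that rose were *Msrb1* (0.80), *Glrx5* (0.78) and *Glrx3* (0.45), and *Gpx3* was lower (-1.11, adjusted p = 0.00138). *Txnrd1*, the cytosolic thioredoxin reductase, did not pass in either genotype comparison, at 0.16 (adjusted p = 0.665) and -0.25 (adjusted p = 0.428). For the knockdown, none of the 23 passed in WT or in *APP/PS1* mice.

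**Figure D4:**
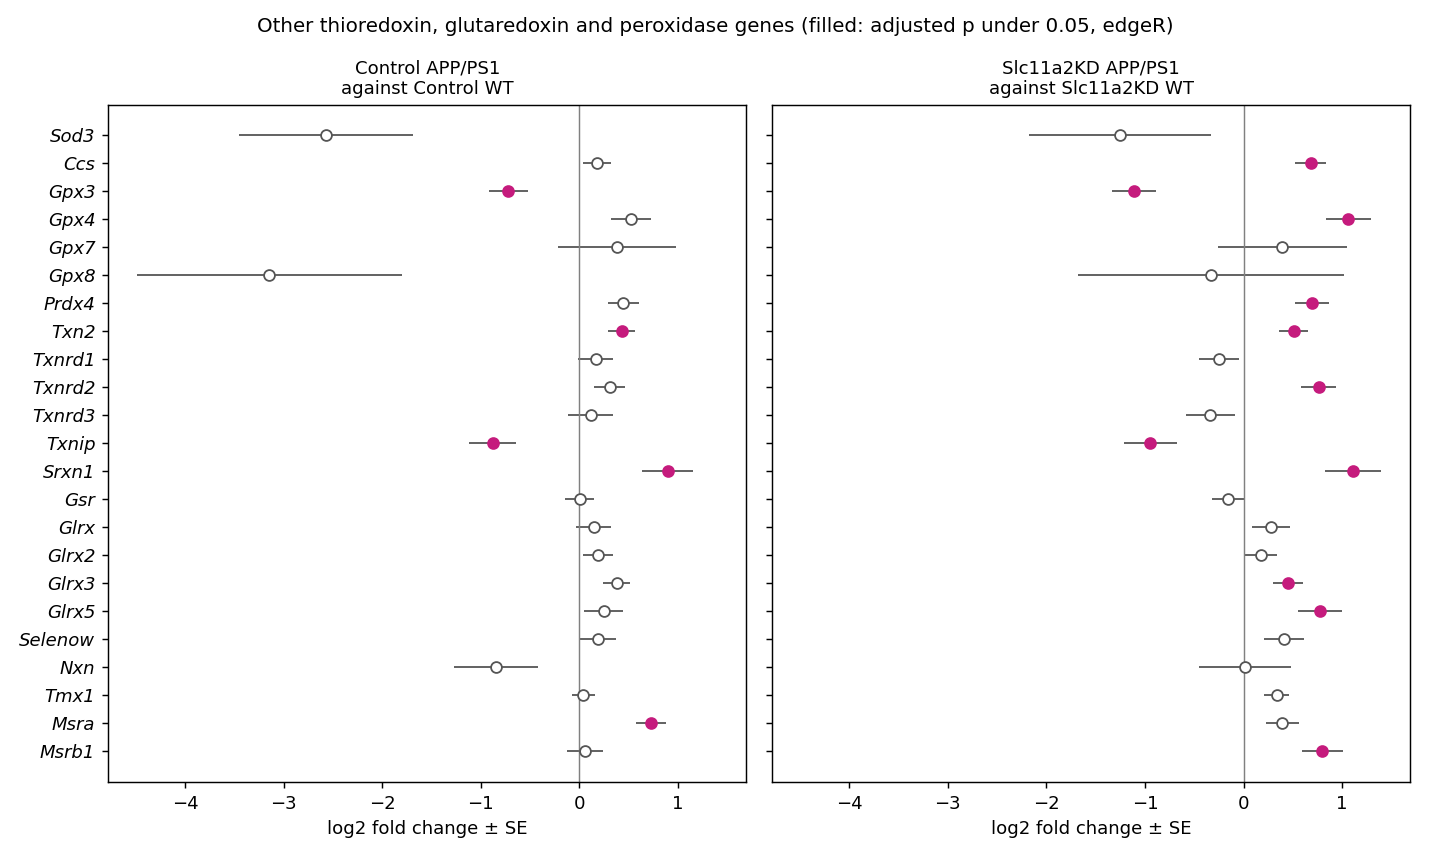
Log2 fold changes (points) with standard errors (bars) of 23 other genes of the thiol and peroxidase systems for APP/PS1 against WT in Control (left) and Slc11a2KD mice (right), filled where the adjusted p was below 0.05. Srxn1 (0.89 and 1.11) and Txn2 lie to the right and Txnip (-0.88 and -0.94) and Gpx3 to the left in both panels.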

How the data were processed

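RNA of CD11b-positive hippocampal cells was sequenced from poly(A)-selected, paired-end libraries, 1 per mouse. Per the labels, the authors trimmed the reads with Trim Galore 0.6.7, aligned them with STAR to mm39 and deposited whole-number counts per gene that were not normalized. A second deposited table, of DESeq2-normalized counts, was not used. The labels give the group of each library.

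A gene was kept if 3 or more of the 22 libraries had 5 or more counts (18759 of 18876 genes). TMM scaling and edgeR's quasi-likelihood test (version 4.0.16, R 4.3.3) were applied with the 4 groups in 1 fit, and Benjamini-Hochberg adjustment ran across every gene kept, with a threshold of 0.05. In a table of 253 pairs of libraries no pair agreed within counting noise. The fits and the length correction were also run on simulated counts, for Slc11a2KD *APP/PS1* against Control *APP/PS1* only. The simulation held no effect of library numbers or choroid plexus RNA, and its results are not given here.

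The 10 transcripts, the lists and the tests were chosen with earlier results of these data known. All 10 transcripts, the pathway genes past the threshold and 6 fixed pathway genes were named, with the most similar gene to each transcript by Pearson's r of log2 CPM. Alternatives were DESeq2 1.42.0, limma voom 3.58.1 with sample quality weights, other size factors and filters, covariates and left-out libraries. The length and GC correction used offsets per library, fitted on its deviations from the mean of each gene, so it also takes out group differences that genes of like length or GC share. Coding sequences were known for all 10 transcripts and for 76.4% of the genes tested, and other genes were left uncorrected. The sources do not say whether libraries of a group came from litters or preparations in common.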

Additional observations from a re-analysis of the deposited data

Results flagged for a closer look

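Among the 40 combinations of transcript and group, 2 held a library that stood apart from the rest of its group by Dixon's ratio, and chance alone flags about 1 in 20. Both were Control WT library 0014, with Prdx1 at 375.0 CPM (ratio 0.718, the group's median being 290.3 CPM) and Txn1 at 81.6 CPM (ratio 0.693, median 59.0 CPM). In this library the share of counts on genes with a coding length below 1000 bases was 50.4%, the highest of the Control WT libraries. Without it both Prdx1 and Prdx6 still passed for Control *APP/PS1* against Control WT.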

How the results depend on the processing

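No paired analysis was possible because the library numbers are unique and no number is shared between groups, so no replicate block could be fitted. For Control *APP/PS1* against Control WT, 2 transcripts passed in each of the 22 fits that left out 1 library. The number, with the share of all genes, was 4 with limma voom (18.2%) and 4 with library numbers 18 to 23 as a covariate (14.6%). It was also 4 with choroid plexus markers as a covariate (11.5%) and 4 with only the compared groups in the fit (18.6%). Sod1 and Txn1 were the added calls with limma voom, library numbers and only the compared groups. With 0010 kept Txn1 was added by edgeR (0.71, adjusted p = 0.0414). The number was 1 (Prdx6) without Control WT 0012 and 0015 (6.91%). It was 0 with a log2 fold change above 1 asked as well, where the largest of the 10 was 0.79. For Slc11a2KD *APP/PS1* against Slc11a2KD WT, 9 passed, and 5 to 9 when 1 library was left out, with 5 without 0001, 0002, 0003, 0021 or 0023. The shares of all genes that passed in those left-out fits are not given here. The number was 2 with a log2 fold change above 1 (5.89%), 5 with 0010 kept (12.7%), 4 with library numbers as a covariate (9.45%), 2 with only the compared groups (6.10%), 2 with only knockdown libraries 18 to 23 (4.69%) and 1 with only knockdown libraries 1 to 4 (1.85%). For Slc11a2KD *APP/PS1* against Control *APP/PS1*, 0 passed, but 3 with DESeq2 (3.09%), 9 with only knockdown libraries 18 to 23 (21.9%), and 0 to 8 when 1 library was left out, with 8 without 0004 (16.4%). For Slc11a2KD WT against Control WT and for the interaction, 0 passed under every alternative run. Between knockdown libraries 18 to 23 and 1 to 4, 9 passed, and 8 to 9 when 1 library was left out, where the shares of all genes are not given here. With a log2 fold change above 1 asked as well it was 0, and the largest of the 10 was 0.93. No value past the threshold had the opposite sign to the fit of 22 libraries. For Slc11a2KD *APP/PS1* against Control *APP/PS1*, where 0 passed in that fit, all 10 were negative with library numbers as a covariate, and none passed. For Slc11a2KD WT against Control WT, 9 of 10 were. The causes of these shifts were not tested. Depth did not limit the 10 transcripts, with at least 897 counts each.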

Other observations

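Control *APP/PS1* library 0010, which entered no comparison, was above the other Control *APP/PS1* libraries for 8 of the 10 transcripts, at 417 CPM for Sod1, 1574 CPM for Gpx1, 958 CPM for Prdx1, 317 CPM for Prdx2 and 180 CPM for Txn1, among others. It was below them for Cat (47.7 CPM) and within their range for Sod2 (39.8 CPM). The share of all genes outside their range is not given for this library. Its share of counts on genes with a coding length below 1000 bases was 64.7%, against 44.2% to 53.0% in the other 6 libraries of its group, and its summed level of lymphocyte markers was 461 CPM, against 0.232 to 2.45 CPM.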
